A study of Mus musculus with 30 samples.

Results

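The 10 circadian clock genes described here were *Arntl*, *Clock* and *Npas2* (positive arm), *Per1*, *Per2*, *Per3*, *Nr1d1* and *Nr1d2* (negative arm), and *Dbp* and *Tef* (output factors). They were taken by gene symbol, and all 10 were among the 14173 genes counted in liver. The set was chosen with earlier results of these data known. The livers came from 30 male C57BL6/J mice aged 6 months, 6 for each of 5 diets, and each mouse gave 1 library made from the 3′ ends of polyadenylated RNA. The diets were Cas-20% (20% casein, 0.57 g% methionine and 0.41 g% cysteine), Cas-5% (5% casein, 0.15 and 0.1 g%), Soy-20% (20% soy protein, 0.22 and 0.22 g%), Soy-20% + SAA (the same soy protein with methionine and cysteine added, 0.58 and 0.41 g%) and Soy-10% (11.5% soy protein, 0.13 and 0.13 g%). After 2 weeks on Cas-20% or, for all mice of the 3 soy diets, on Soy-20%, the mice were moved to their diets at 12 weeks of age, ate them for 12 weeks and were fasted for 4 h before they were killed. The hour at which each mouse was killed is not given in the sources used here, so a difference between diets and a difference between hours of sampling cannot be told apart.

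In the mammalian clock, ARNTL (BMAL1) pairs with CLOCK or its relative NPAS2 and activates genes that carry E-boxes, among them the *Per* genes, *Nr1d1*, *Nr1d2*, *Dbp* and *Tef*. PER proteins then inhibit this pair, and the nuclear receptors NR1D1 and NR1D2 (REV-ERBα and REV-ERBβ) repress *Arntl*, *Clock* and *Npas2* through RORE elements, so that in liver the positive arm peaks at another time of day than the negative arm and the output factors. DBP and TEF are PAR bZIP transcription factors that bind D-boxes and carry the rhythm to genes of metabolism and detoxification. The liver clock also takes its time from feeding.

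Of the 32817 mouse promoters in the RefSeq table used (build GRCm38.p6, 250 bases before to 50 bases after each start), 14 belonged to 9 of the clock genes, and *Per2* had none there. They were searched on both strands for the E-box CACGTG, the D-boxes TTATGTAA and TTACGTAA, and the RORE. The E-box and the second D-box share the core ACGT, and no match found overlapped another. The E-box was in 3 of the 14 promoters and in 7.15% of all promoters, a D-box was in 1 of 14 and in 1.05%, and the RORE was in 1 of 14 and in 0.384%. The promoters with an E-box belonged to *Per1* and *Tef* only. Those of *Clock*, *Npas2*, *Nr1d1*, *Nr1d2* and *Dbp* held no match to any of the elements. The promoters below are shown because they hold the matches that link the arms of the loop, 1 for each type of element, with a pair of E-box promoters so that a negative arm gene can be set beside an output factor. Capitals mark the match. In *Per3*, at chr4:151044616-151044915 on the minus strand, the D-boxes began 205 and 158 bases upstream of the start. In *Arntl*, at chr7:113207261-113207560 on the plus strand, the RORE began at base 27 of the transcript. In *Per1*, at chr11:69098699-69098998 on the plus strand, the E-box began 166 bases upstream, and in *Tef*, at chr15:81802423-81802722 on the plus strand, 127 bases upstream. A second *Tef* start had an E-box 138 bases upstream. A match is a description of these letters and not a measured site.
Per3: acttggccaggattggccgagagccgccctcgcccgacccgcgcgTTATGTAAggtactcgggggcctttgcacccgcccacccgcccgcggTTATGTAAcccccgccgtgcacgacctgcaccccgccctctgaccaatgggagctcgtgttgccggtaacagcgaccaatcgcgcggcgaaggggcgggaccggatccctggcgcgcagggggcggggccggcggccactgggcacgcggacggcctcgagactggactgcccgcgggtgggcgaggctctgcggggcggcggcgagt
Arntl: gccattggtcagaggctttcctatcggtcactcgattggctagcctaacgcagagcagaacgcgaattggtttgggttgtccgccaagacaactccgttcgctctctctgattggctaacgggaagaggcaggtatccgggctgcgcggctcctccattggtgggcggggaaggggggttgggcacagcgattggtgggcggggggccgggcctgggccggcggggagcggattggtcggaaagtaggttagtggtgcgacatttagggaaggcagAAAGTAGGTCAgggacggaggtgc
Per1: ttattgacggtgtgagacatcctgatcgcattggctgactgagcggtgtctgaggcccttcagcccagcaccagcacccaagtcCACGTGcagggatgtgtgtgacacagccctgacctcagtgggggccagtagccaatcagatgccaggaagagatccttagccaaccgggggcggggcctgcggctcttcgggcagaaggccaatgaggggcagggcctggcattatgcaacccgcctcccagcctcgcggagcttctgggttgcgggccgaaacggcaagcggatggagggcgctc
Tef: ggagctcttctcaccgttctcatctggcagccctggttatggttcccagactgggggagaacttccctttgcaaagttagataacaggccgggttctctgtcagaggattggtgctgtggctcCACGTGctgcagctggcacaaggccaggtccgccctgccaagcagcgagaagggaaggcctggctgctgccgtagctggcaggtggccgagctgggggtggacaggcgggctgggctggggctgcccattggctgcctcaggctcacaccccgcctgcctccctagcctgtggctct

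Libraries held between 7694015 and 14565542 counts, with a median of 10803734. The tissue label fitted the markers: the 7 hepatocyte markers in the table (of 8, *Tf* was not in it) summed to between 73188 and 102343 CPM (counts scaled to the library total) in every liver. The 4 libraries of Soy-20% + SAA livers 3 to 6 stood apart from the others. Their counts rose with the GC content of the last 200 bases of transcripts, by 0.0555, 0.173, 0.167 and 0.19 log2 units per 10% GC over 11967 genes, against slopes of -0.0593 to 0.0271 in the 26 other libraries. The clock genes differ in this property. The GC content of the 3′ end was 27% in *Arntl* and *Per3*, 27.5% in *Npas2*, 30.0% in *Nr1d2*, 31.5% in *Clock* and 35.5% in *Per2*, against 46.5% in *Per1*, 47% in *Nr1d1*, 50.5% in *Tef* and 51% in *Dbp*. Comparisons that rest on the Soy-20% + SAA livers were therefore also fitted without livers 3 to 6 and with the slope of each library as a covariate. Exons of *Dbp* overlap those of *Sphk2*, exons of *Nr1d1* those of *Thra* and exons of *Tef* those of *Gm17597*, each on the opposite strand and by 539, 263 and 193 bases. Whether the counting used strand is not given in the sources used here, so reads from these stretches could belong to either gene.

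Across the 5 diets, 8 of the 10 clock genes differed at an adjusted p of 0.05 or less (edgeR quasi-likelihood F test, Benjamini-Hochberg over all genes), against 43.4% of the 12561 genes tested. In what follows, a gene is said to be called when it passed that threshold. The smallest adjusted p was that of *Per2* (2.8e-05), followed by *Nr1d1* (0.00025), *Tef* (0.00068), *Clock* (0.0016), *Dbp* (0.0037), *Nr1d2* (0.0043), *Per3* (0.017) and *Arntl* (0.037). *Per1* (0.15) and *Npas2* (0.33) were not called. With the GC slope as a covariate, 4 clock genes were called: *Clock*, *Per2*, *Nr1d1* and *Dbp*. Without Soy-20% + SAA livers 3 to 6, 5 were called, the same 4 and *Per3*. The calls of *Arntl*, *Nr1d2* and *Tef* thus did not hold in either fit. Leaving out single livers gave adjusted p-values for *Arntl* between 0.016 and 0.095.

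**Figure D1:**
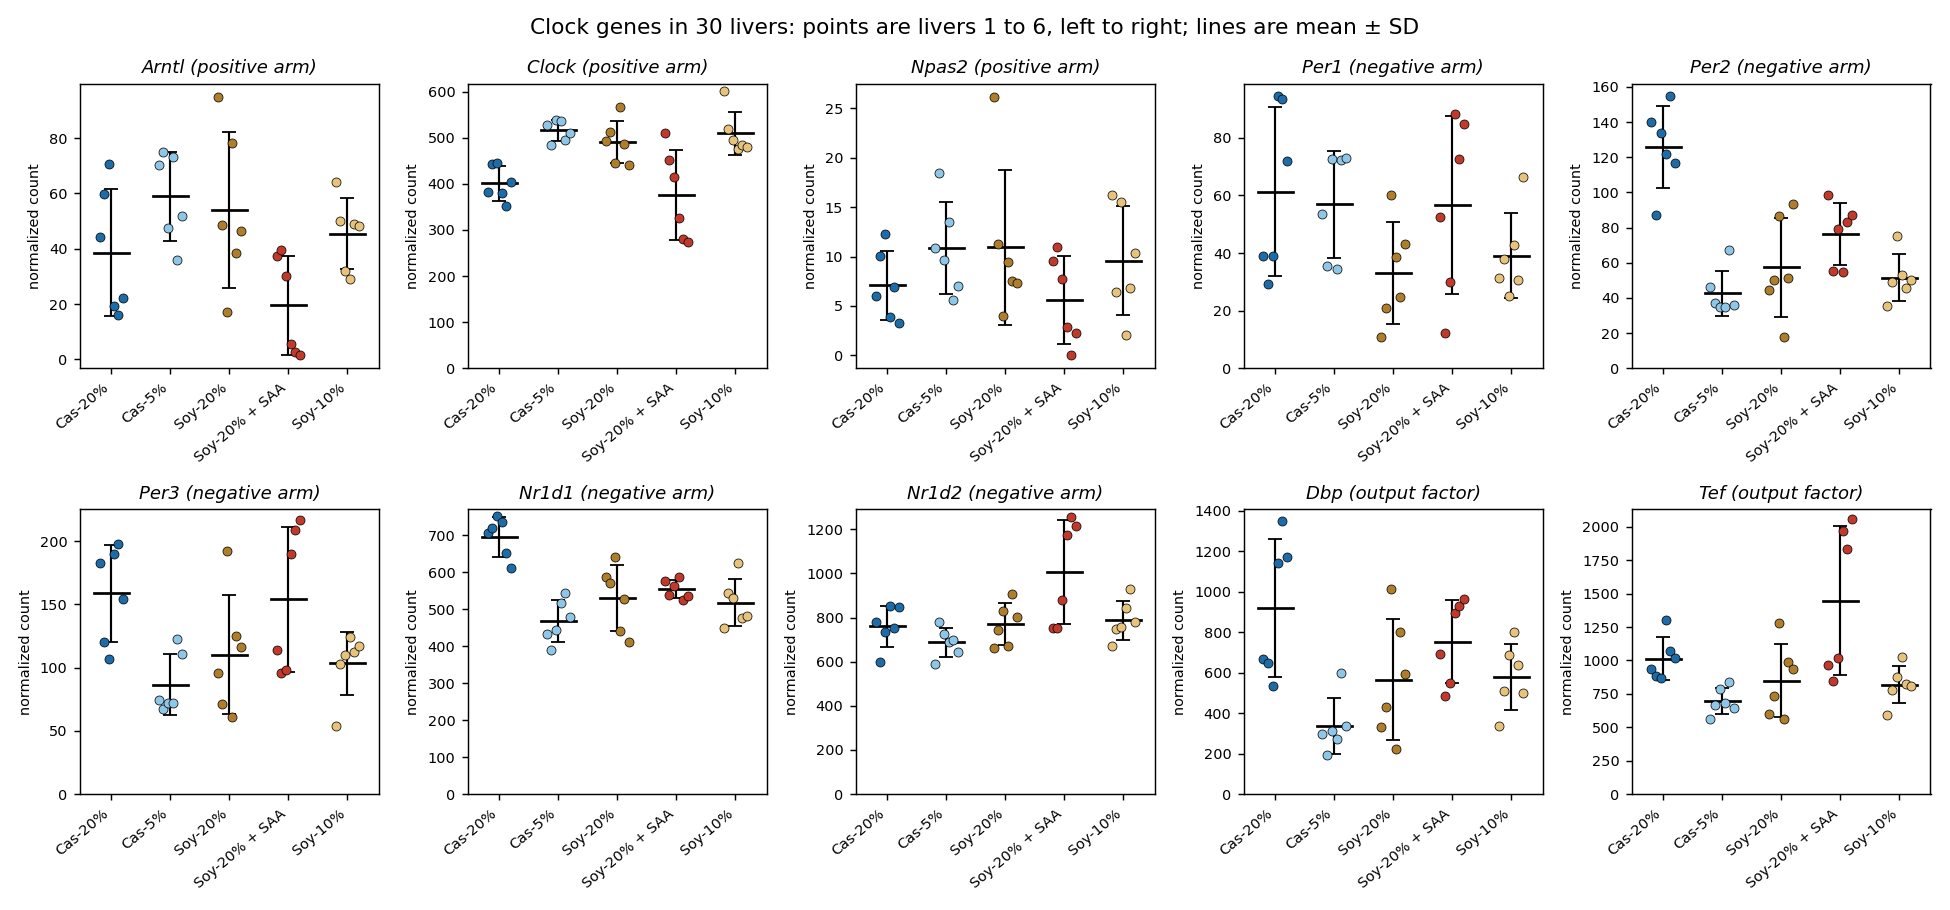
Normalized counts of each clock gene (vertical axis, linear scale, different for each gene) in the 6 livers of each diet (horizontal axis); points are livers, long lines are means and bars are SD. Per2 was at 87.1 or more in all 6 Cas-20% livers and at 67.4 or less in all 6 Cas-5% livers, and Arntl was 5.75 or less in 3 of the 6 Soy-20% + SAA livers.

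Casein restriction, Cas-5% against Cas-20%, was the comparison in which most clock genes were called. Of the 9 tested, 6 were called, with *Clock* higher in Cas-5% and *Per2*, *Per3*, *Nr1d1*, *Dbp* and *Tef* lower. Among all 12076 genes tested, 24.9% were called, 11.6% higher and 13.3% lower. The median log2 fold change of the 9 clock genes was -0.53, and that of all genes 0.02. The number called was 6 in each alternative run, including the GC slope and each liver left out in turn. *Npas2* had too few counts to pass the filter on low counts.

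In the positive arm, *Clock* counted 382, 444, 446, 380, 352 and 403 in the Cas-20% livers and 528, 484, 539, 537, 496 and 511 in the Cas-5% livers. The groups did not overlap, and *Clock* was 1.3-fold higher in Cas-5% (log2 0.38, SE 0.07, adjusted p = 0.00071). *Arntl*, the partner of *Clock*, counted 44.1, 59.8, 70.6, 19.3, 15.9 and 22.1 in Cas-20% and 70.2, 75.1, 47.5, 73.0, 36.1 and 51.9 in Cas-5%. The Cas-20% livers fell into 3 with a high and 3 with a low count, and the high ones lay within the Cas-5% range. The log2 difference of 0.61 (SE 0.31) was not called (adjusted p = 0.17). *Npas2* was near the detection limit, at 7.09 ± 3.52 normalized counts in Cas-20% and 10.9 ± 4.64 in Cas-5% (SD, n = 6). Tested without the filter, it gave a log2 difference of 0.56 with an adjusted p of 0.29.

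In the negative arm, *Per2*, a direct inhibitor of the ARNTL pair, had the largest log2 change of the 9 genes tested in this comparison, within error of that of *Dbp* below. It counted 140, 87.1, 134, 122, 155 and 117 in Cas-20% and 46.5, 36.9, 34.9, 34.6, 67.4 and 36.1 in Cas-5%. All 6 Cas-5% livers were below all Cas-20% livers, and *Per2* was 2.88-fold lower (log2 -1.53, SE 0.17, adjusted p = 7.4e-06). *Nr1d1*, the main heme-sensing repressor of *Arntl*, counted 707, 719, 752, 736, 651 and 612 in Cas-20% and 433, 389, 444, 517, 544 and 479 in Cas-5%. These groups also did not overlap, and *Nr1d1* was 1.47-fold lower (log2 -0.56, SE 0.08, adjusted p = 0.00012). *Per3*, whose role in the loop is minor, counted 183, 120, 107, 190, 198 and 154 in Cas-20% and 74.2, 67.2, 71.8, 72.1, 123 and 111 in Cas-5%. Here 4 of the 6 Cas-5% livers were below every Cas-20% liver, and *Per3* was 1.79-fold lower (log2 -0.84, SE 0.18, adjusted p = 0.0026). *Per1*, the relative of *Per2*, was at 61.2 ± 29.3 in Cas-20% and 56.9 ± 18.5 in Cas-5%, with a log2 difference of -0.07 (SE 0.29, adjusted p = 0.88). *Nr1d2*, the second receptor, was at 761 ± 93.8 and 688 ± 66.7, with a log2 difference of -0.13 (SE 0.09, adjusted p = 0.3). The members of each pair of relatives, *Per1* and *Per2* or *Nr1d1* and *Nr1d2*, thus stood on different sides of the threshold, and the difference within a pair was not tested.

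Both output factors fell. *Dbp* counted 667, 647, 533, 1140, 1348 and 1171 in Cas-20% and 299, 195, 309, 272, 597 and 337 in Cas-5%, and 5 of the 6 Cas-5% livers were below all Cas-20% livers. It was 2.69-fold lower in Cas-5% (log2 -1.43, SE 0.25, adjusted p = 0.00054). *Tef* counted 933, 884, 870, 1300, 1073 and 1022 in Cas-20% and 564, 667, 783, 684, 840 and 644 in Cas-5%. These groups did not overlap, and *Tef* was 1.44-fold lower (log2 -0.53, SE 0.11, adjusted p = 0.0018). In all, the 2 diets did not overlap in 4 of the 9 clock genes tested, *Clock*, *Per2*, *Nr1d1* and *Tef*, against 12.9% of all genes tested. In bulk liver, fewer cells that express a gene and less of its RNA per cell cannot be told apart.

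Soy restriction, Soy-10% against Soy-20% + SAA, gave 3 called clock genes of 9 tested, against 17.0% of 11983 genes (8.51% higher, 8.47% lower). *Clock* was higher in Soy-10%, and *Per2* and *Tef* were lower. The median log2 fold change of the 9 was -0.39, and that of all genes -0.01. *Clock* counted 510, 452, 414, 325, 281 and 273 in Soy-20% + SAA and 601, 519, 496, 475, 485 and 480 in Soy-10% (1.36-fold, log2 0.44, SE 0.14, adjusted p = 0.047). *Per2* counted 98.4, 55.2, 79.4, 54.6, 83.0 and 87.1 in Soy-20% + SAA and 35.5, 49.2, 75.5, 53.2, 45.6 and 50.3 in Soy-10% (1.48-fold lower, log2 -0.57, SE 0.18, adjusted p = 0.046). *Tef* counted 963, 847, 1020, 1972, 1831 and 2056 in Soy-20% + SAA and 594, 782, 877, 1024, 824 and 806 in Soy-10% (1.78-fold lower, log2 -0.83, SE 0.22, adjusted p = 0.021). In none of the 9 genes were the diets free of overlap, against 6.22% of all genes tested without overlap.

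These calls moved with livers 3 to 6 of the control diet. With the GC slope as a covariate none of the 9 clock genes was called, and 1 had an unadjusted p under 0.05. Without those 4 livers none was called either, and again 1 had an unadjusted p under 0.05. *Clock* then differed by 0.07 in both fits and *Tef* by -0.09 with the slope and -0.15 without the livers, on the log2 scale. *Per2* kept its size, at -0.56 and -0.59, with adjusted p-values of 0.22 and 0.27. Leaving out single livers gave between 1 and 6 called clock genes: 1 without Soy-10% liver 1, 2, 4, 5 or 6 or without Soy-20% + SAA liver 3, 5 or 6, and 6 without Soy-20% + SAA liver 2. DESeq2 called 3.

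*Arntl* had the widest spread of the 10 genes in Soy-20% + SAA. It counted 37.3, 39.7, 30.0, 5.75, 2.80 and 1.54 in this diet, from raw counts between 2 and 39, and 64.0, 50.1, 32.0, 29.2, 49.0 and 48.4 in Soy-10%. The log2 difference was 1.26 (SE 0.51, adjusted p = 0.096), 0.23 without livers 3 to 6 and 0.02 with the GC slope. The 3 livers with the fewest *Arntl* counts, livers 4 to 6, were those with the steepest GC slopes. *Clock*, whose 3′ end is also AT-rich, counted least in the same 3 livers, and *Npas2* counted 2.88, 0 and 2.31 there against 7.74 to 11 in livers 1 to 3. The AT-rich genes of the negative arm went the other way. *Per3* counted 190, 209 and 217 in livers 4 to 6 and 96.1 to 114 in livers 1 to 3, and *Nr1d2* counted 1173, 1257 and 1217 there and 754 to 881 in livers 1 to 3. The GC-rich *Tef* and *Dbp* were also highest in these livers, at 1831 to 2056 and 895 to 961, as was *Per1*, at 72.7 to 88.2 against 12.1 to 52.6 in livers 1 to 3. *Per2* and *Nr1d1* showed no such split, with 54.6 to 87.1 and 524 to 588 in livers 4 to 6 and 55.2 to 98.4 and 538 to 577 in livers 1 to 3.

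Against Soy-20% without added amino acids, the same Soy-10% livers gave no called clock gene of 9 tested, while 0.866% of 11897 genes were called. edgeR gave no unadjusted p under 0.05 among the 9, and DESeq2 called none. Log2 differences lay between -0.24 (*Arntl*, SE 0.30) and 0.24 (*Per1*, SE 0.32). The standard errors of *Dbp* (difference 0.03, SE 0.29) and *Per2* (-0.15, SE 0.28) were wide, since Soy-20% livers spread from 223 to 1014 normalized counts in *Dbp* and from 17.8 to 93.7 in *Per2*. The gene with the narrowest error was *Clock*, with 491 ± 46.5 in Soy-20% and 509 ± 47.7 in Soy-10% (difference 0.05, SE 0.07). The comparison shares its Soy-10% livers with the one above.

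The 2 soy controls, Soy-20% and Soy-20% + SAA, differ in the added methionine and cysteine. No clock gene of 9 tested was called by edgeR, and 0.00838% of 11932 genes were called. An unadjusted p under 0.05 was seen for 4, *Arntl* (log2 1.51, SE 0.57), *Clock* (0.40, SE 0.15), *Nr1d2* (-0.38, SE 0.14) and *Tef* (-0.76, SE 0.25), with adjusted p-values between 0.1 and 0.13. DESeq2 called *Tef* alone, and a single fit of all 30 livers called all 4. With the GC slope, or without Soy-20% + SAA livers 3 to 6, none of the 9 had an unadjusted p under 0.05.

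**Figure D2:**
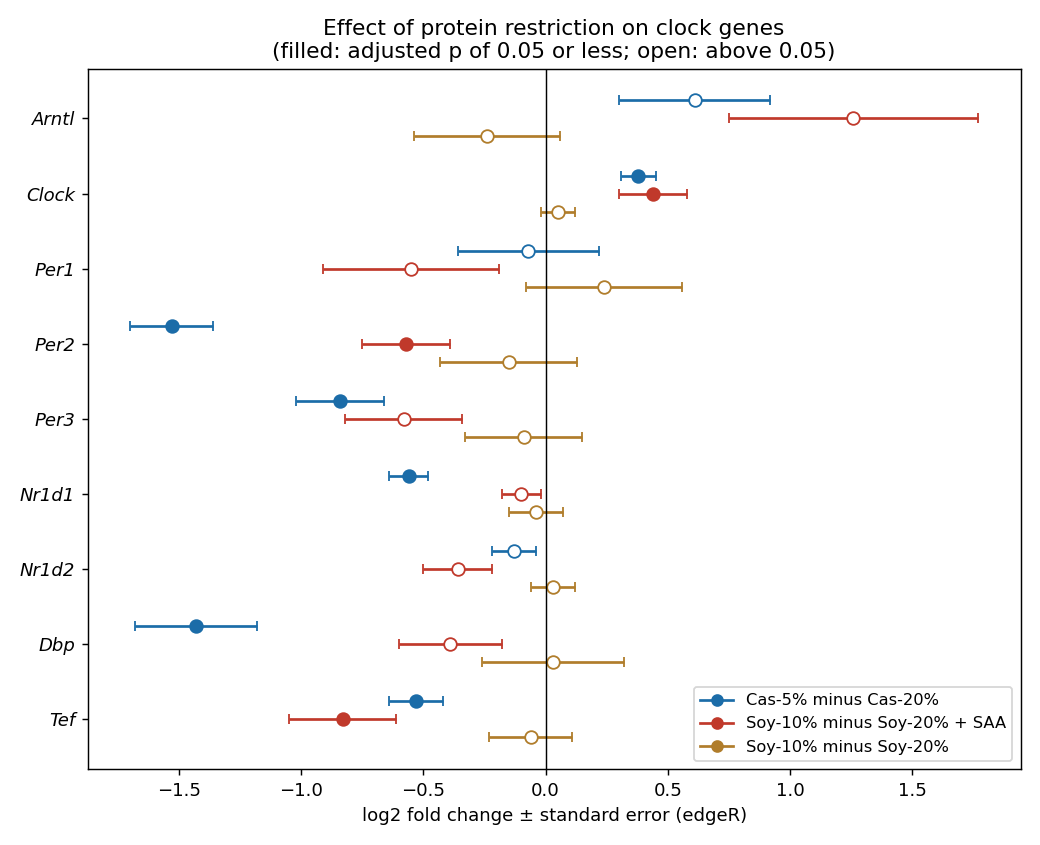
Log2 fold change of each of the 9 clock genes tested (horizontal axis; bars are the SE from edgeR) for Cas-5% minus Cas-20%, Soy-10% minus Soy-20% + SAA and Soy-10% minus Soy-20%. Filled points are called genes: 6 in the casein comparison, 3 against Soy-20% + SAA and none against Soy-20%, where all values lie between -0.24 and 0.24.

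Protein sources were compared at matched sulfur amino acids. Between the controls, Cas-20% against Soy-20% + SAA, 2 of 9 clock genes were called, against 2.43% of 11988 genes. *Per2* was 1.65-fold higher in Cas-20% (126 ± 23.4 against 76.3 ± 17.8 normalized counts, log2 0.72, SE 0.17, adjusted p = 0.043), and 5 of the 6 Cas-20% livers were above every Soy-20% + SAA liver. *Nr1d1* was 1.26-fold higher (696 ± 53.5 against 555 ± 25.5, log2 0.33, SE 0.07, adjusted p = 0.038) and did not overlap. Without Soy-20% + SAA livers 3 to 6 the differences were as large, at 0.70 and 0.32, but neither was called (adjusted p = 0.6 and 0.58 with 2 control livers left). With the GC slope they were 0.65 and 0.33 and again not called (adjusted p = 0.28 and 0.2). Red blood cell markers differed between the same diets, with 4 of 5 called higher in Cas-20% (median log2 0.77), as did the hepatocyte markers *Cps1* and *Ass1* (2 of 7 called higher). None of these markers was called with the GC slope or without livers 3 to 6, but most differences kept their size. The 4 called red blood cell markers were at 0.75 to 0.81 in the main fit. They were at 0.72 to 0.79 with the slope and 0.77 to 0.84 without the livers. *Ass1* went from 0.69 to 0.80 and 0.81, while *Cps1* was smaller than in the main fit, at 0.62 and 0.55. The part of these markers in the differences of *Per2* and *Nr1d1* was not tested. The count of clock genes called lay between 0 and 3 when single livers were left out, and was 0 without Cas-20% liver 1, 2, 3, 4 or 5 or Soy-20% + SAA liver 3, 4, 5 or 6.

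Between the restricted diets, Cas-5% against Soy-10%, 1 of 10 clock genes was called, against 10.7% of 12041 genes. These diets hold 5% casein and 11.5% soy protein, so the source and the amount of protein cannot be told apart here. *Dbp* was 1.68-fold lower in Cas-5% than in Soy-10% (335 ± 137 against 577 ± 164, log2 -0.75, SE 0.22, adjusted p = 0.032), and 4 of the 6 Cas-5% livers were below every Soy-10% liver. This call did not hold in DESeq2 (adjusted p = 0.051), in the fit of all 30 livers (0.12) or in 8 of the 12 fits that left out 1 liver, with log2 differences between -1.0 and -0.64. *Per1* (log2 0.57) and *Nr1d2* (-0.18) had unadjusted p-values of 0.025 and 0.04 and were not called. *Clock* was at 516 ± 22.9 in Cas-5% and 509 ± 47.7 in Soy-10%.

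The casein effect minus the soy effect, tested in 1 model of 24 livers, was called for 2 of 10 clock genes, against 8.69% of 12532 genes. Both belong to the negative arm. Protein went from 20% to 5% with casein and from 20% to 11.5% with soy, so source and amount cannot be told apart. The effect on *Per2* was more negative with casein than with soy by 0.96 on the log2 scale (difference -0.96, SE 0.27, adjusted p = 0.026), and that on *Nr1d1* by 0.46 (difference -0.46, SE 0.12, adjusted p = 0.015). The larger gap was between the controls, where Cas-20% less Soy-20% + SAA was 0.72 (*Per2*) and 0.33 (*Nr1d1*), both called. Cas-5% less Soy-10% was -0.24 and -0.13, neither called (adjusted p = 0.48 and 0.41 in edgeR). *Dbp* had a difference of -1.05 (SE 0.35) with an adjusted p of 0.062. With Soy-20% in place of Soy-20% + SAA as the soy control, which shares the Soy-10% livers, 3 were called: *Per2* (-1.38), *Nr1d1* (-0.53) and *Dbp* (-1.46, adjusted p = 0.039). Without Soy-20% + SAA livers 3 to 6 the differences of *Per2* and *Nr1d1* were -0.94 and -0.45 and were not called (adjusted p = 0.14 and 0.12). With the GC slope, *Nr1d1* and *Dbp* (-1.34, adjusted p = 0.046) were called and *Per2* (-0.89, adjusted p = 0.082) was not. Left out singly, Soy-10% liver 3 brought the number called to 1. For *Clock*, called in both restrictions in the main fits, the difference was -0.07 (SE 0.16, adjusted p = 0.84). Its soy call was lost with the GC slope and without livers 3 to 6. In both fits the casein minus soy difference of *Clock* turned positive, as it did when Soy-20% replaced Soy-20% + SAA. It was not called in any of them. A similar response of *Clock* to both proteins therefore cannot be read from the main value.

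The order of the diets by mean count differed between the arms. *Clock* was highest in Cas-5% (516), Soy-10% (509) and Soy-20% (491), which lay within 1 SD of their neighbours, and lower by more than 1 SD in Cas-20% (401) and Soy-20% + SAA (376). *Arntl* and *Npas2* had the same 2 diets at the low end, though no neighbouring diets differed by more than 1 SD. *Per2* and *Nr1d1* were highest in Cas-20%, by more than 1 SD from the next diet, Soy-20% + SAA, and the other 4 diets followed in the order Soy-20% + SAA, Soy-20%, Soy-10% and Cas-5%, each within 1 SD of the next. *Per3*, *Dbp* and *Tef* had Cas-20% and Soy-20% + SAA as the upper 2 diets and Cas-5% as the lowest, with neighbours within 1 SD throughout. *Per1* ran from 61.2 in Cas-20% to 33.1 in Soy-20%, and *Nr1d2* from 1006 in Soy-20% + SAA to 688 in Cas-5%. The place of Soy-20% + SAA in this order rests on livers 3 to 6 for several genes. The mean of its livers 1 and 2 alone was 481 in *Clock*, 38.5 in *Arntl*, 10.3 in *Npas2*, 105 in *Per3*, 754 in *Nr1d2*, 590 in *Dbp* and 905 in *Tef*, and 76.8 in *Per2* and 558 in *Nr1d1*.

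The arms were summarised for each liver as the mean over their genes of log2 CPM, as a description with no test. The positive arm was at 2.20 ± 0.48 in Cas-20%, 2.74 ± 0.30 in Cas-5%, 2.61 ± 0.53 in Soy-20%, 1.56 ± 1.0 in Soy-20% + SAA and 2.54 ± 0.39 in Soy-10% (SD, n = 6). The negative arm was at 4.40 ± 0.26, 3.77 ± 0.22, 3.78 ± 0.39, 4.20 ± 0.39 and 3.84 ± 0.21 in the same order. The output factors were at 6.44 ± 0.37, 5.45 ± 0.33, 5.90 ± 0.63, 6.54 ± 0.50 and 5.97 ± 0.34. The positive arm less the negative arm was -2.20 ± 0.72 in Cas-20% and -2.65 ± 1.35 in Soy-20% + SAA, and -1.03 ± 0.52, -1.17 ± 0.90 and -1.30 ± 0.57 in Cas-5%, Soy-20% and Soy-10%. Within Soy-20% + SAA it was -1.66 and -1.01 in livers 1 and 2, -1.72 in liver 3 and -4.15 to -3.34 in livers 4 to 6. The ranges of this difference overlapped between all diets: it lay between -2.90 and -1.30 in Cas-20% and between -1.86 and -0.45 in Cas-5%. Only its movement between livers can be read, since its level also holds the levels of different genes.

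Livers of the same diet also differed, and they did so along the 2 arms. In Cas-20%, livers 4, 5 and 6 held 15.9 to 22.1 counts of *Arntl*, 1140 to 1348 of *Dbp* and 72.0 to 94.6 of *Per1*, whereas livers 1, 2 and 3 held 44.1 to 70.6, 533 to 667 and 29.4 to 39.0. *Per2* and *Nr1d1* did not divide the livers in this way. In Soy-20%, liver 3 had the least *Arntl* (17.1) with the most *Dbp* (1014), *Tef* (1278) and *Per3* (192), and liver 4 had 78.4 of *Arntl* with the least *Dbp* (223), *Tef* (563) and *Per3* (60.6). The most *Arntl* was in liver 1 of this diet (95), with *Dbp* at 329, *Tef* at 602 and *Per3* at 96.1. In Cas-5%, liver 5 had the least *Arntl* (36.1) and the most *Dbp* (597), *Per2* (67.4) and *Per3* (123).

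This covariation was measured as the correlation of deviations of log2 CPM from the diet mean over the 30 livers, in all 45 pairs of clock genes, with a permutation test that exchanged livers within diets (100000 draws, smallest p possible 1e-05) and Benjamini-Hochberg adjustment over the 45. Of the pairs, 32 were called, 16 positive and 16 negative. All 6 pairs of a positive arm gene with an output factor were called and negative, with r between -0.91 and -0.57. Of the 15 pairs between the positive and the negative arm, 10 were called, all negative, and the median r of the 15 was -0.69. All 3 pairs within the positive arm were called and positive (r between 0.66 and 0.86), as were 8 of the 10 pairs of a negative arm gene with an output factor, 4 of the 10 pairs within the negative arm and the pair of *Dbp* and *Tef* (r = 0.80). Livers 3 to 6 of Soy-20% + SAA are among the points, and their GC slope moves with *Arntl*, *Clock* and *Npas2*, so values without this diet are given beside those below. Without it, some called pairs lost their call. They were *Clock* and *Npas2* (r = 0.44, adjusted permutation p = 0.082), *Clock* and *Per1* (-0.41, 0.11) and *Per1* and *Nr1d2* (0.34, 0.19). The call of *Per2* and *Tef* (r = 0.45, adjusted permutation p = 0.045) was lost with Spearman's rho (0.39, 0.08). It was also lost without the 2 livers farthest from the median of *Per2* (0.35, 0.14). That of *Per1* and *Nr1d2* was lost without the 2 livers farthest from the median of *Per1* (0.37, 0.12).

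*Arntl* and *Dbp* had r = -0.77 (permutation p = 1e-05, adjusted 7.5e-05) and Spearman's rho = -0.86 (adjusted permutation p = 5.6e-05). Without the 2 livers farthest from the median of *Arntl* r was -0.83, without the Soy-20% + SAA diet it was -0.90, and within single diets of 6 livers it lay between -0.99 and -0.88. *Arntl* and *Tef* had r = -0.91 (adjusted permutation p = 7.5e-05), rho = -0.92, and r = -0.84 without the Soy-20% + SAA diet. *Arntl* and *Per3* had r = -0.80 (adjusted permutation p = 0.0001), rho = -0.84 and r = -0.75 without that diet, and between -0.98 and -0.69 within diets. *Arntl* and *Clock* had r = 0.86 (adjusted permutation p = 0.00026), rho = 0.80 and r = 0.66 without that diet, and 0.13 within Cas-5%. *Dbp* and *Per3* had r = 0.85 (adjusted permutation p = 7.5e-05), rho = 0.83 and r = 0.85 without the Soy-20% + SAA diet. Within Cas-5%, *Clock* had r = -0.04 with *Dbp*, -0.17 with *Tef*, -0.04 with *Npas2* and 0.10 with *Per1*. With *Per2*, *Per3*, *Nr1d2* and *Nr1d1* it had -0.38, -0.34, -0.46 and 0.19 there.

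*Nr1d1* stood outside this pattern. None of its 9 pairs was called, with r = -0.10 for *Arntl* (adjusted permutation p = 0.56), 0.01 for *Clock* (0.97) and 0.34 for *Dbp* (0.19). Without the Soy-20% + SAA diet these were -0.24, -0.12 and 0.37, with adjusted permutation p-values of 0.36, 0.65 and 0.18. Its correlation with *Arntl* was 0.60 within Cas-20% and -0.83 within Soy-10%, each over 6 livers. *Per2* was between these cases. Its pair with *Dbp* was called (r = 0.66, adjusted permutation p = 0.0022, and 0.71 without that diet), while that with *Arntl* was not (r = -0.36, adjusted permutation p = 0.074) unless the Soy-20% + SAA diet was left out (r = -0.56, adjusted permutation p = 0.027). *Nr1d1* and *Per2*, in which the casein and soy effects were called as different, thus had the weakest r with *Arntl* over the 30 livers. This did not hold within each diet: within Soy-10% their r with *Arntl* was -0.83 and -0.81 over 6 livers. Without the Soy-20% + SAA diet *Nr1d2* had r = -0.55 with *Arntl*, beside -0.56 for *Per2*.

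**Figure D3:**
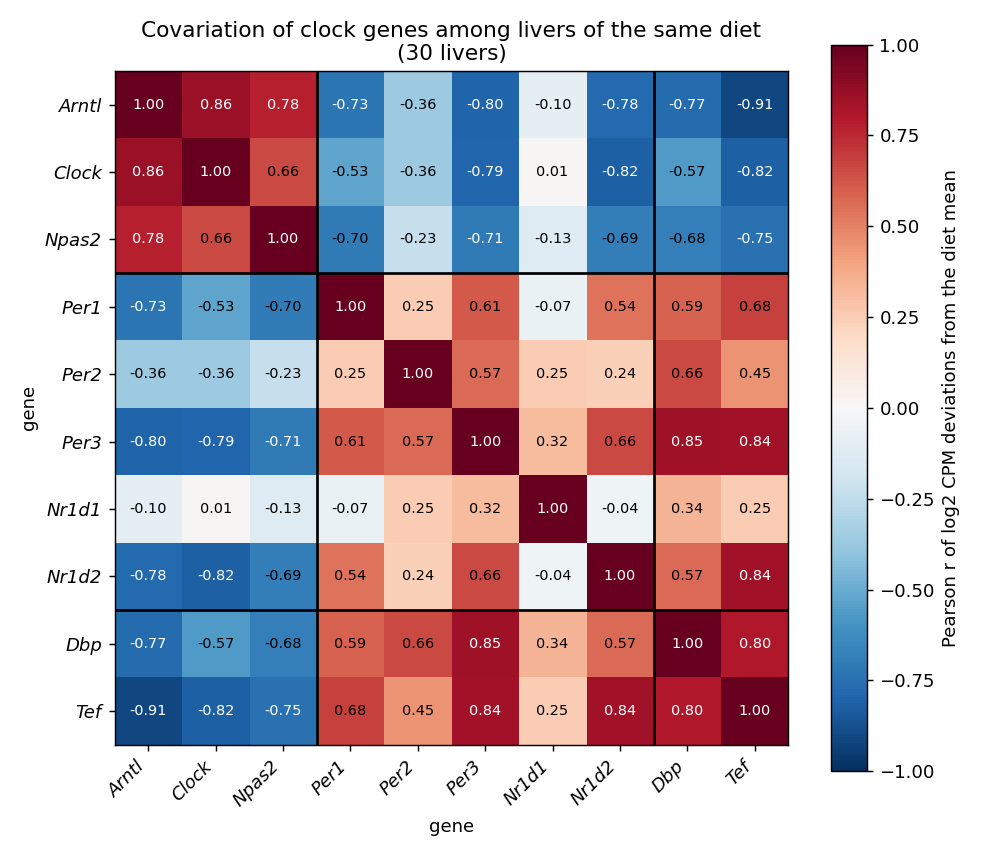
Pearson r (colour and number) of deviations of log2 CPM from the diet mean over 30 livers, for each pair of clock genes (both axes), with lines between the positive arm, the negative arm and the output factors. The positive arm is negative against the output factors in all 6 pairs (-0.91 to -0.57), and the row of Nr1d1 holds values between -0.13 and 0.34.

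**Figure D4:**
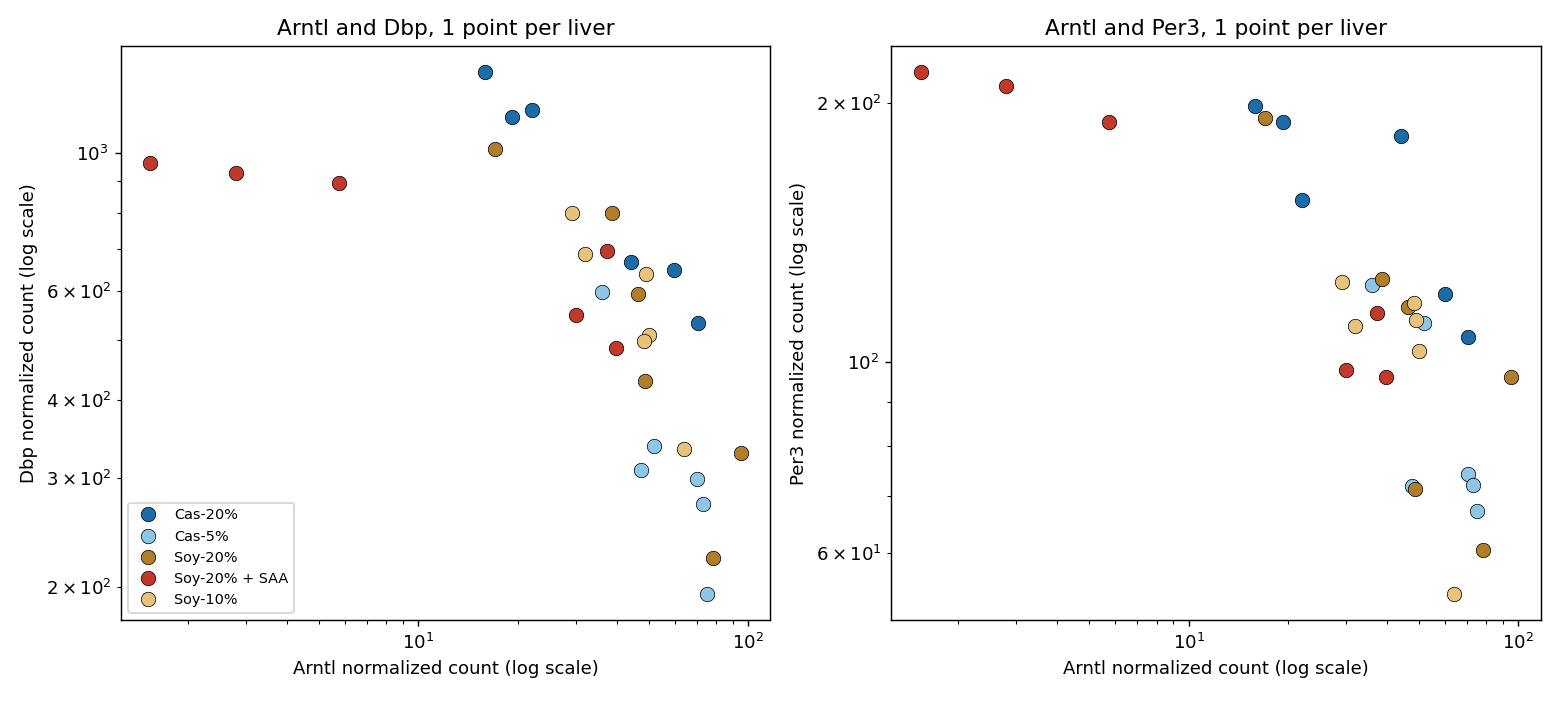
Normalized counts of Dbp (left) and Per3 (right) against Arntl in each of the 30 livers, both axes on a log scale, coloured by diet. Both fall as Arntl rises in all 5 diets (r of log2 deviations between -0.99 and -0.88 and between -0.98 and -0.69 within diets), and the 3 points at the far left are Soy-20% + SAA livers 4 to 6.

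Among 12024 genes with a mean of at least 10 counts, and with the 10 clock genes themselves left out, those whose deviations were most like those of *Dbp* were *Usp2* (r = 0.89), *Ciart* (0.82) and *Bhlhe41* (0.81) over 30 livers, and 0.90, 0.83 and 0.81 without the Soy-20% + SAA diet. USP2 is a deubiquitinase with a strong daily rhythm in liver, and CIART and BHLHE41 are repressors of the ARNTL pair. For *Arntl* they included *Pnrc1* (0.84) and *Tab2* (0.83), at 0.79 and 0.62 without that diet. The 3′ ends of *Pnrc1* and *Tab2* had a GC content of 30.5% and 26.5%, close to that of *Arntl*, and those of *Usp2*, *Ciart* and *Bhlhe41* 47.5%, 38.5% and 35.5%. These correlations are descriptions over points that share libraries.

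A list of 22 other clock genes (21 in the table) was described in the same comparisons. In the casein comparison 1 of 19 tested was higher and 5 were lower, with a median log2 fold change of -0.10 against 0.02 for all genes. Over all genes tested 24.9% were called, 11.6% higher and 13.3% lower. Those that fell were *Bhlhe41*, *Bhlhe40*, *Ciart*, *Cry2* and *Usp2*. *Bhlhe41* (DEC2) was at 104 ± 50.6 normalized counts in Cas-20% and 9.80 ± 3.15 in Cas-5%, with the lowest Cas-20% liver at 41.5 and the highest Cas-5% liver at 14.4 (log2 -3.36, SE 0.36, adjusted p = 4.4e-06). Its relative *Bhlhe40* (DEC1) was at 704 ± 136 and 291 ± 75.9 (log2 -1.25, SE 0.15, adjusted p = 1.6e-05), and *Ciart* at 31.6 ± 18.6 and 5.65 ± 6.12 (log2 -2.33, SE 0.50, adjusted p = 0.0027). *Cry2*, the partner of the PER proteins, was at 179 ± 12.7 and 122 ± 13.2 (log2 -0.54, SE 0.09, adjusted p = 0.00026). *Usp2* had a log2 change of -1.52. The gene that rose was *Nfil3*, which codes for a repressor that competes with DBP and TEF for D-boxes. It was at 118 ± 41.2 in Cas-20% and 213 ± 46.9 in Cas-5% (log2 0.86, SE 0.20, adjusted p = 0.0049).

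In the soy comparison against Soy-20% + SAA, 1 of 18 other clock genes tested was higher (*Hlf*) and 3 were lower (*Cry2*, *Bhlhe41*, *Noct*), with a median of -0.08 against -0.01 for all genes, of which 17.0% were called. None was called with the GC slope (1 at an unadjusted p under 0.05) or without Soy-20% + SAA livers 3 to 6 (3 of 19 at such a p). *Bhlhe41* was at 65.6 ± 25.3 in Soy-20% + SAA and 31.3 ± 15.3 in Soy-10% (log2 -1.08, SE 0.29, adjusted p = 0.024), and *Cry2* at 173 ± 33.3 and 119 ± 24.9 (log2 -0.54, SE 0.15, adjusted p = 0.028). Against Soy-20% none of 19 was called by edgeR, with 2 at an unadjusted p under 0.05. The casein and soy effects differed for *Bhlhe41* (difference -2.29, SE 0.51, adjusted p = 0.0086) and *Bhlhe40* (-1.11, SE 0.26, adjusted p = 0.011) and for no other of the 19, of which 6 had an unadjusted p under 0.05. Both were also called with the GC slope, and without livers 3 to 6 *Bhlhe41* (-2.60, adjusted p = 0.02) was called and *Bhlhe40* (-0.88, adjusted p = 0.16) was not. For *Cry2* the difference was 0.00 (SE 0.18). *Timeless* was called across the 5 diets (adjusted p = 0.0018), at 15.7 ± 4.06 in Cas-20% and 7.13 ± 1.69 in Soy-20% + SAA, and had a log2 difference of 0.07 in the casein comparison. Its adjusted p across the diets was 0.028 with the GC slope and 0.076 without livers 3 to 6.

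Targets of the output factors in liver did not move as 1 group. Of 6 listed genes 5 were in the table and tested, and in the casein comparison 1 rose and 1 fell (median -0.29). Over all genes 24.9% were called, with a median of 0.02. *Cyp2a5*, a coumarin hydroxylase with a near-identical relative that reads could be split with, was at 1986 ± 519 in Cas-20% and 990 ± 264 in Cas-5% (log2 -0.99, SE 0.18, adjusted p = 0.00063). It was higher in Soy-10% (2458 ± 530) than in Soy-20% + SAA (1543 ± 350, log2 0.67, SE 0.16, adjusted p = 0.015), and the 2 effects differed (-1.66, SE 0.26, adjusted p = 0.00046). Both calls of *Cyp2a5* held with the GC slope and without livers 3 to 6 (soy 0.88 and 0.86, difference -1.80 and -1.86). *Nr1i3*, the xenobiotic receptor CAR, was at 682 ± 284 and 1166 ± 51.4 in Cas-20% and Cas-5% (log2 0.79, adjusted p = 0.0087). In the soy comparison 2 rose and 1 fell (median 0.15), beside 17.0% of all genes called and a median of -0.01. *Alas1*, the first enzyme of heme synthesis, rose (log2 1.06, SE 0.30, adjusted p = 0.027) and *Ppara*, a receptor of fatty acid oxidation, fell (log2 -0.52, SE 0.11, adjusted p = 0.0073), and their log2 differences with casein were -0.63 and -0.29 (adjusted p = 0.38 and 0.18). The casein and soy effects were not called as different for either (*Alas1* -1.70, adjusted p = 0.09, and *Ppara* 0.22, adjusted p = 0.53). The soy differences of *Alas1* were 1.09 with the GC slope and 1.18 without livers 3 to 6, and those of *Ppara* -0.35 and -0.37, none of them called.

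Lists of genes that follow glucocorticoids and temperature, signals also known to act on the liver clock, were described beside the clock genes, and their part in the results above was not tested. Of 10 glucocorticoid-responsive genes, 4 rose and 2 fell in Cas-5% (median -0.00 on the log2 scale), beside the 11.6% higher and 13.3% lower over all genes. *Igfbp1* rose (548 ± 254 to 2216 ± 790, log2 2.03), as did *Sgk1* (0.74) and *Fkbp5* (0.70), while *Tat*, a tyrosine-degrading enzyme, fell (5123 ± 2071 to 1640 ± 558, log2 -1.63), as did the phosphatase gene *Dusp1* (-1.15). *Pck1*, the gluconeogenic enzyme, was called across the 5 diets (adjusted p = 0.0023) and had a log2 difference of -0.29 with casein (adjusted p = 0.15). None of the 10 was called between Soy-10% and Soy-20% + SAA by edgeR, with 2 at an unadjusted p under 0.05, against 17.0% of all genes called. Against Soy-20%, 1 of 10 was called, *Dusp1* (log2 -0.80, SE 0.15, adjusted p = 0.014), beside 0.866% of all genes. Casein minus soy was called for 3 of 10, *Igfbp1* (2.40), *Tat* (-1.76) and *Dusp1* (-0.97), beside 8.69% of all genes. *Igfbp1* and *Tat* were also called with the GC slope, and *Igfbp1* alone without livers 3 to 6. Of 9 temperature-responsive genes tested, 5 rose and 1 fell in Cas-5% (median 0.42), beside the 11.6% higher and 13.3% lower over all genes. The heat shock genes *Hspa1b* (log2 2.33, near-identical to *Hspa1a*, with which reads could be split), *Hsph1* (0.67), *Hsp90aa1* (0.58), *Hspa8* (0.42) and *Dnajb1* (0.42) rose, and *Hspe1* (-0.28) fell. The other listed genes tested, *Hsf1* (0.05), *Cirbp* (0.11) and *Rbm3* (-0.33), were not called with casein. In the soy comparison *Hspa1b* (1.29) and *Hsf1* (0.68) were called, both higher, against 17.0% of all genes called. Neither was called with the GC slope (1.03 and 0.15) or without livers 3 to 6 (0.95 and 0.03). Casein minus soy was called for 3 of 9 temperature-responsive genes, *Hspa1b* (1.03), *Hspa8* (0.70) and *Hsp90aa1* (0.47), beside 8.69% of all genes. With the GC slope *Hspa1b* and *Hspa8* were called. Without livers 3 to 6 the called genes were *Hspa8* (0.38) and *Hspe1* (-0.43).

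Markers of other cells that liver samples can hold were checked for the same livers. In the casein comparison 24.9% of all genes tested were called, 11.6% higher and 13.3% lower. The summed CPM of 5 stellate and endothelial markers was 393 to 527 in Cas-5% and 278 to 387 in Cas-20%, without overlap, and 298 to 437 in the soy diets, with 1 of 5 called in the casein comparison (*Dcn*). Red blood cell markers summed to 1393 to 3087 in Cas-20%, 1134 to 2041 in Cas-5% and 641 to 3479 in the soy diets, with 4 of 5 called lower in Cas-5%. Hepatocyte markers summed to 73188 to 82041 in Cas-20% and 86056 to 102343 in Cas-5%, with 1 of 7 called higher and 3 lower. Of 6 immune markers 5 were in the table, and they summed to 68.6 to 172 in all livers, with no call by edgeR and no unadjusted p under 0.05 among the 4 tested with casein. Pancreatic acinar markers summed to 16.9 to 55.7 except in Soy-10%, where they reached 648 in 1 liver, and the one tested (*Cela1*) was lower in Cas-5%. Of 3 adipocyte markers *Adipoq* and *Plin1* were not in the table, and *Cfd* was at 0.8 to 16.0 CPM with casein, lower in Cas-5%, and 4.87 to 72.9 with soy. The part of these differences in the clock gene results was not tested.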

How the data were processed

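Liver RNA of 30 mice was sequenced as 3′ end libraries (Lexogen QuantSeq FWD kit), 1 per mouse and 6 per diet, and mice are the replicates. The deposited raw counts per gene were made by the authors with the Lexogen QuantSeq pipeline 2.3.6 on GRCm38. The aligner, the strand setting and the annotation release are not given in the sources used here. The deposited normalized counts are a signal that the authors obtained by dividing the raw counts of each library by 1 DESeq2 size factor (DESeq2 1.30 in R 4.0.3 per the labels), on a linear scale that keeps the effect of gene length, if any. Each gene in the table has a total of at least 90 counts over the livers. Symbols lacking in the table were taken for 1684 genes from a gene name table. Totals ran from 7694015 to 14565542, and counting error alone is large for *Npas2* (0 to 24 counts per liver) and for *Arntl* in its lowest livers.

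Tests used the raw counts in R 4.3.3 with edgeR 4.0.16 (filterByExpr, TMM, glmQLFit and glmQLFTest, two-sided, Benjamini-Hochberg over all genes tested, called at 0.05 or less), fitted on the diets compared. The normalized counts are printed as levels with SD. log2 CPM values had a prior count of 2. Python 3.11.15 with numpy 2.4.6, pandas 2.3.3 and matplotlib 3.10.9 made the permutation tests and figures. Alternatives were DESeq2 1.42.0, DESeq2 size factors in edgeR, no filter, each liver left out, a replicate block, the GC slope of each library, a fit of all 30 livers and, where used, no Soy-20% + SAA livers 3 to 6 or Soy-20% as the soy control. The fits were tested on simulated data.

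The 10 members and the lists (other clock genes, PAR bZIP targets, glucocorticoid- and temperature-responsive genes, and markers of hepatocytes, acinar, red blood, immune, stellate and endothelial, and fat cells) were chosen with earlier results of these data known. Named were all members, up to 6 called genes of each of the first 4 lists by smallest adjusted p, and the 3 genes most like *Arntl* and *Dbp*. One gene named by this rule is not reported here. *Hlf*, *Noct*, *Hsf1*, *Cirbp*, *Rbm3* and the called or absent markers were named after their values were seen. Promoters and their sequences are from RefSeq.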

Additional observations from a re-analysis of the deposited data

Results flagged for a closer look

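In 5 of the 50 groups of 6 livers (10 genes in 5 diets), 1 liver lay apart from the others by Dixon's test, which chance gives in about 1 of 20 groups. *Clock* was at 601 normalized counts in Soy-10% liver 1, with the next liver at 519, and the same liver was lowest in *Per3*, at 53.8 against 103 for the next. *Npas2* was at 26.2 in Soy-20% liver 1, with the next at 11.3. *Dbp* was at 597 and *Per2* at 67.4 in Cas-5% liver 5, with the next livers at 337 and 46.5.

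The casein and soy effects were called as different for *Nr1d1* (difference -0.46, adjusted p = 0.015) and *Per2* (-0.96, adjusted p = 0.026) by the interaction test in edgeR. Neither was called without Soy-20% + SAA livers 3 to 6, and *Per2* was not called with the GC slope. The fit of all 30 livers called 1 clock gene. As given above, the larger gap was between the control diets, and the restricted diets also differ in the amount of protein.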

How the results depend on the processing

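The casein comparison called 6 clock genes under each alternative. Counts that moved by over 1.5 times were, with the GC slope, 0 (soy), 0 (Cas-20% against Soy-20% + SAA) and 4 (5 diets), and, without Soy-20% + SAA livers 3 to 6, 0 for soy, 0 for the controls, 0 for casein minus soy and 5 for the 5 diets. The fit of all 30 livers called 4 (Soy-20% against Soy-20% + SAA), 0 (Cas-5% against Soy-10%) and 1 (casein minus soy), and DESeq2 called 1 and 0 in the first 2 of these. Leaving out single livers gave 1 to 6 (soy), 0 to 3 (Soy-20% against Soy-20% + SAA), 0 to 3 (controls), 0 to 2 (restricted diets) and 1 to 3 (casein minus soy). Over all genes, the soy count was 376 with the GC slope, 317 without livers 3 to 6 and 3077 in the fit of all 30 livers, against 2035. For Soy-10% against Soy-20% it was 217 in DESeq2 and 62 in the fit of all livers, against 103. For Soy-20% against Soy-20% + SAA it was 873 in DESeq2, 1793 in the fit of all livers, 2 with DESeq2 size factors or no filter, and 0 with the slope or without livers 3 to 6, against 1. For the controls it was 1135 in DESeq2, 2331 in the fit of all livers, 141 with the block, 5 with the slope and 3 without livers 3 to 6, against 291. For casein minus soy it was 568 with the slope and 296 without livers 3 to 6, against 1089, and for the 5 diets 3551 and 3433, against 5450. Log2 differences that turned their direction, none of them called, were, with the GC slope, *Per1* 0.38, *Per3* 0.08, *Nr1d2* 0.05 and *Dbp* 0.07 for soy, *Per1* 0.10, *Per3* 0.16 and *Nr1d2* 0.02 for Soy-20% against Soy-20% + SAA, and *Clock* -0.19 and *Tef* 0.11 for the controls. Without livers 3 to 6 they were *Per1* 0.23 and *Nr1d2* 0.05, then *Per3* 0.06 and *Nr1d2* 0.03, then *Clock* -0.27, *Nr1d2* 0.01 and *Tef* 0.16. For casein minus soy, values with the GC slope, without livers 3 to 6 and with Soy-20% as control were 0.04, 0.37 and 0.84 (*Arntl*), 0.19, 0.30 and 0.32 (*Clock*), 0.41, 0.66 and 0.74 (*Npas2*), -0.20, -0.31 and -0.32 (*Per1*), -0.09, -0.19 and -0.17 (*Nr1d2*) and -0.31, -0.38 and -0.48 (*Tef*). Single livers left out turned the sign of differences near 0, with ranges of -0.22 to 0.09 (*Per1*, casein), -0.34 to 0.04 (*Per2*), -0.21 to 0.14 (*Per3*), -0.10 to 0.03 (*Nr1d1*), -0.02 to 0.08 (*Nr1d2*), -0.13 to 0.28 (*Dbp*) and -0.15 to 0.10 (*Tef*) for Soy-10% against Soy-20%, -0.12 to 0.01 (*Nr1d1*, Soy-20% against Soy-20% + SAA), -0.10 to 0.26 (*Per1*) and -0.06 to 0.17 (*Per3*) for the controls, -0.06 to 0.34 (*Npas2*, restricted diets) and -0.18 to 0.01 (*Clock*, casein minus soy). The correlation of *Clock* and *Nr1d1* was -0.07 without the 2 farthest livers and -0.12 without the Soy-20% + SAA diet, and that of *Nr1d1* and *Nr1d2* was 0.07 without the 2 farthest livers. The cause of these shifts was not tested, beyond the smaller number of livers in some fits. Same-numbered livers correlated between -0.19 and 0.19, over 0.1 in at most 2 of 6 pairs, and in at most 2 of 6 was a liver closest to its own number, so the numbers were not taken as pairs. With the replicate block the count of the controls was 1 in place of 2, that of casein minus soy 3, and the counts of the other comparisons were unchanged. Under the block, *Per2* in the soy comparison and *Nr1d1* between the controls were not called, and *Nr1d2* in the soy comparison and *Dbp* for casein minus soy were.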
